A study of Mus musculus with 4 samples.

Results

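The genes described here are the 3 E protein genes Tcf3 (E2A), Tcf4 (E2-2) and Tcf12 (HEB) and the 3 Id genes Id1, Id2 and Id3, chosen by gene symbol. All 6 were among the 35976 gene symbols counted, and all 6 passed the filter on low counts that left 20389 genes. RNA was measured by bulk RNA-seq in mouse thymocytes sorted as positive for CD24, CD4 and CD8a and negative for surface TCRb, the double-positive (DP) stage. Control mice had the genotype Cxxc1 +/+ :Lck-cre and knockout (KO) mice Cxxc1 F/F :Lck-cre, with 2 libraries each. All libraries therefore carried Lck-cre, a transgene in which the Lck promoter drives Cre recombinase in T-lineage cells. The labels give neither age nor treatment. The labels do not say that replicates came from separate animals, so p-values measure the spread between these libraries, which may be technical.

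E proteins are basic helix-loop-helix (HLH) transcription factors that bind E box DNA as dimers with each other or with other HLH proteins. Id proteins have the dimerisation domain but lack the DNA-binding basic region, so an E protein paired with an Id protein does not bind DNA. In the thymus E2A and HEB promote T-lineage gene expression and recombination of receptor genes. Signals through the pre-TCR and the T cell receptor (TCR) induce Id3 by way of a kinase cascade and Egr factors. Cxxc1 encodes a protein that binds unmethylated CpG DNA and works with SETD1 enzymes, which place methyl groups on lysine 4 of histone H3.

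None of the 6 genes differed between the genotypes at an adjusted p below 0.05. Tcf12 was at the same level in all 4 libraries to within 1.12-fold. The fitted ratio of KO to control was 1.38 for Tcf4 and 0.835 for Tcf3. Id3 stood at 10.2 to 10.4 CPM (reads of a gene scaled to library size by edgeR's TMM method) in 3 libraries and at 36.0 CPM in control 1. Id1 and Id2 were below 5 CPM everywhere. In edgeR's quasi-likelihood test 0 of the 6 passed, against 0.451% of all tested genes (0.27% higher and 0.181% lower in KO), and 0 of 6 had an unadjusted p below 0.05, against 13.9% of all tested genes. DESeq2 also called 0 of 6, against 4.74% of the genes it tested. Control and KO libraries did not overlap for 3 of the 6 genes, Tcf4, Id2 and Id3, against 46.8% of all tested genes, so this share is near the background. The median log2 fold change of the 6 was -0.11, and that of all tested genes was -0.04. Levels below are in CPM, and each log2 fold change compares KO with control. Each carries a standard error computed from the fold change and the F statistic of edgeR's quasi-likelihood test.

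Total counts ranged from 12150508 in control 1 to 36243182 in KO 1. Cxxc1 itself (chromosome 18, 74216124 to 74221496) was at 110.7 and 53.5 CPM in the controls, against 35.7 and 39.4 CPM in the KO libraries (log2 fold change -1.12 ± 0.34, adjusted p = 0.199 in edgeR's quasi-likelihood test and 0.0337 in DESeq2). Both KO libraries lay below both controls, and leaving out control replicate 1 gave a log2 fold change of -0.51. Gene counts keep reads from exons that are not deleted, and the sources used here do not name the deleted exons. The DP markers Cd4 and Cd8a were present in every library, at 142 CPM or more, and were lower in the KO libraries (log2 fold changes of -2.09 ± 0.32 and -2.06 ± 0.34).

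Tcf12 encodes HEB, the E protein known for its role at the DP stage. The gene lies on chromosome 9 (71842688 to 72111871 on GRCm38, the assembly that mm10 names). It stood at 561.8 and 631.2 CPM in control 1 and control 2, against 602.1 and 621.9 CPM for the KO pair. Both KO values lay between the control values. The log2 fold change was 0.04 ± 0.22, with a 95% interval of -0.46 to 0.54 (adjusted p = 0.967, edgeR's quasi-likelihood test). The interval leaves room for a fall to 0.726-fold or a rise to 1.45-fold. Few well-expressed genes varied less between libraries. Of 9255 tested genes with a mean above 10 CPM, 2.02% had a smaller ratio of the highest to the lowest library, and the median ratio was 1.63.

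Tcf3 encodes E2A, whose splice forms differ in the basic HLH exon and are summed in gene-level counts. The gene lies on chromosome 10 (80409514 to 80433647). It was at 283 and 172.5 CPM in control 1 and control 2, against 223.8 and 156.3 CPM for the KO pair. The genotypes overlapped. Libraries of 1 genotype differed by as much as 1.64-fold in the control pair and 1.43-fold in the KO pair, with replicate 1 higher in both pairs. The log2 fold change was -0.26 ± 0.29, with an interval of -0.92 to 0.40 (adjusted p = 0.776, edgeR's quasi-likelihood test). Without control replicate 1 its sign turned, to 0.14.

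Because Cxxc1 protein binds CpG dinucleotides, the promoters of the 2 most counted members are shown, with each CpG in capitals. RefSeq promoter windows on GRCm38.p6 were found for 4 of the 6 genes, Tcf3, Tcf12, Id2 and Id3. Tcf12 has 3 such windows, and the one with the most CpG is shown. The bases shown lie before the RefSeq start of each window and outside any UTR that GENCODE annotates, on the minus strand for both genes. They are at chr9:72111203-72111451 for Tcf12 and chr10:80433648-80433885 for Tcf3.
Tcf12: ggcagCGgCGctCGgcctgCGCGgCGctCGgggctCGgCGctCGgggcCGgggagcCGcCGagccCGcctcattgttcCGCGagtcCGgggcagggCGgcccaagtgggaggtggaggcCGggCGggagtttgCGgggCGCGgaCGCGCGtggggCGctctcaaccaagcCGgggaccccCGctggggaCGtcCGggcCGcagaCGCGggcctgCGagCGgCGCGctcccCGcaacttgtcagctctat
Tcf3: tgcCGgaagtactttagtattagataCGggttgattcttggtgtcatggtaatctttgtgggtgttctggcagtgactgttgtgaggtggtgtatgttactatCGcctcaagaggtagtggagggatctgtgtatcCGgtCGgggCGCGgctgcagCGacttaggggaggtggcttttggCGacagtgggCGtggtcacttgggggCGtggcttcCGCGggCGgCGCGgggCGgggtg
The Tcf12 window shown held 39 CpG in the 250 bases before its RefSeq start, more than 98.4% of 32851 promoter windows, whose median was 6. The other Tcf12 windows held 38 and 0, the latter at an internal start. The Tcf12 bases shown lie inside the GENCODE gene span given above, which starts further upstream. The Tcf3 window held 18 in 250 bases, more than 78.3% of windows, of which the 238 bases shown hold 17. The windows of Id2 and Id3 also held 18 each, but GENCODE UTRs cover 161 and 250 of their 250 bases. The E box letters CANNTG, which read the same on both strands, occurred once each in the Tcf12 window shown, the Tcf12 window with 38 CpG and the windows of Tcf3 and Id2, and in 66.2% of all windows. They were not found in the Id3 window or the Tcf12 window with 0 CpG. Cxxc1 binding and histone methylation at these sites were not analysed here.

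Tcf4 encodes E2-2, the E protein best known for plasmacytoid dendritic cell development. The gene lies on chromosome 18 (69343356 to 69689079). It was at 68.3 and 72.9 CPM in the controls, against 108.5 and 85.8 CPM in the KO libraries. Both KO libraries lay above both controls, which held for 22.8% of all tested genes. The log2 fold change was 0.46 ± 0.23, with an interval of -0.07 to 0.99, and did not pass the test (adjusted p = 0.429, edgeR's quasi-likelihood test). In bulk RNA, a different number of cells of some type and a different RNA level per cell cannot be told apart. Of 12 dendritic cell markers, 9 were tested and 0 passed in edgeR, with unadjusted p-values below 0.05 for 1 higher and 1 lower gene, while DESeq2 called 1. Their summed level was 727.8 and 683.4 CPM in the controls, against 166.3 and 286.9 CPM in the KO libraries, most of it from Ccr9 and Ly6d, which T-lineage cells also express. The list median was -0.91. Both KO libraries lay above both controls for 2 of the 9 and below for 4, against 22.8% and 24% of all tested genes. The plasmacytoid marker Siglech was below 1 CPM in all 4 libraries and Batf3 was at 0 in 3 of them, while Irf8 was at 2.27 and 1.39 CPM in the controls, against 9.64 and 5.23 CPM in the KO libraries (log2 fold change 2.04 ± 0.66, adjusted p = 0.22, edgeR). Siglech, Batf3 and Irf8 were named after their values were seen, and the part of Irf8-expressing cells in the Tcf4 difference was not tested.

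**Figure D1:**
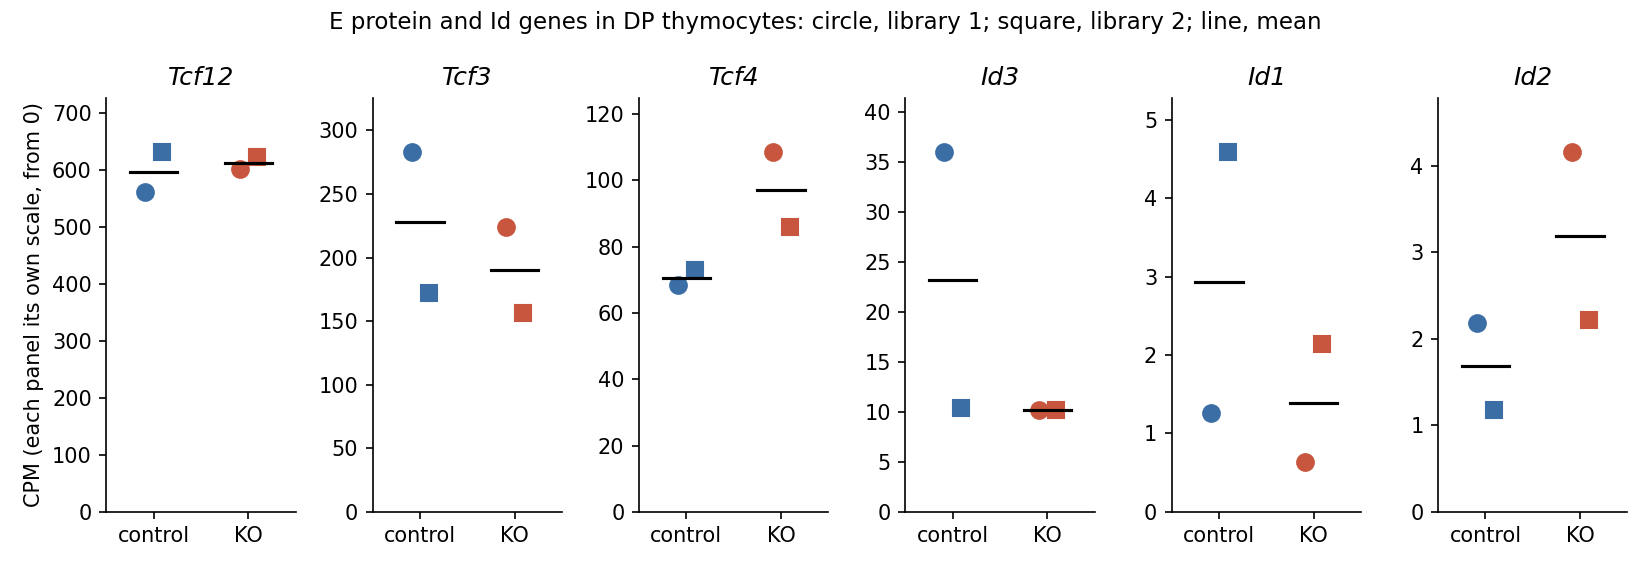
Level of each E protein and Id gene in each library (vertical axes, CPM, from 0, on a separate scale for each gene) by genotype (horizontal axis). Circles are library 1, squares library 2 and lines genotype means; Tcf12 is level across libraries, and Id3 is high in control 1 (36.0 CPM) and at 10.2 to 10.4 CPM in the other 3.

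Id3 encodes the Id protein most closely tied to TCR signalling in thymocytes. The gene lies on chromosome 4 (136143497 to 136145755). Control 1 had 36.0 CPM and control 2 had 10.4 CPM, while KO 1 and KO 2 each had 10.2 CPM. Control 1 stood apart, and control 2 was within the counting intervals of both KO libraries. Both KO libraries lay below both controls, which held for 24% of all tested genes. Counting error does not span this gap: the exact Poisson 95% interval was 32.6 to 39.6 CPM in control 1 and 9.37 to 11.6 CPM in control 2. The log2 fold change was -1.18 ± 0.53, with an interval of -2.37 to 0.02 (adjusted p = 0.368, edgeR's quasi-likelihood test). Control replicate 1 decided this value. Leaving out control replicate 1 gave -0.03 (adjusted p = 0.987, edgeR), and without control replicate 2 it was -1.82 and passed the test (adjusted p = 0.0127, edgeR).

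Few well-expressed genes split the control pair as Id3 did. Of the 9255 tested genes above 10 CPM, 57 (0.616%) were at least as far above control 2 in control 1. By distance between centred profiles of log2(CPM + 1) over the 4 libraries, the gene nearest to Id3 among 8551 was Snord14c, a small nucleolar RNA, at 71.8, 19.2, 20.6 and 16.8 CPM in control 1, control 2, KO 1 and KO 2 (distance 0.24). Snord87, another small nucleolar RNA, and the histone gene Hist1h2ag followed, at distances of 0.42 and 0.43. Both also had their highest level in control 1, at 64.7 and 155.7 CPM. No gene lay within a distance of 0.2 of Id3. Control 1 had the fewest counts, and the part of depth in its Id3 level was not tested.

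Id1 encodes an Id protein known as a target of BMP signalling, and lies on chromosome 2 (152736251 to 152737410). It was at 1.26 and 4.59 CPM in the controls, against 0.631 and 2.13 CPM in the KO libraries, from 15, 159, 22 and 76 reads. The genotypes overlapped. Libraries of 1 genotype differed by 3.64-fold in the control pair and 3.38-fold in the KO pair, with replicate 2 higher in both pairs. The log2 fold change was -1.09 ± 1.03, with an interval of -3.42 to 1.24 (adjusted p = 0.719, edgeR's quasi-likelihood test), and without control replicate 2 its sign turned, to 0.13. A difference of 2-fold was thus not detectable for Id1 in these libraries.

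Id2 encodes the Id protein required for innate lymphoid and natural killer (NK) cells, and lies on chromosome 12 (25093799 to 25097140). It was at 2.19 and 1.18 CPM in the controls, against 4.16 and 2.22 CPM in the KO libraries, from 26, 41, 145 and 79 reads. Both KO libraries lay above both controls, but control 1 and KO 2 differed by far less than the replicates did. The log2 fold change was 0.94 ± 0.86, with an interval of -1.01 to 2.88 (adjusted p = 0.708, edgeR's quasi-likelihood test). Of 15 NK and innate lymphoid markers, 9 were tested and 1 rose, Gzma, a granule protease gene, from 11.4 and 9.40 CPM to 34.9 and 49.7 CPM (log2 fold change 2.03 ± 0.33, adjusted p = 0.0442, edgeR; without KO replicate 1, 2.30 and adjusted p = 0.116). Their summed level was 34.1 and 29.4 CPM in the controls, against 44.1 and 61.7 CPM in the KO libraries. Without Gzma it was lower in the KO libraries, at 22.78 and 19.96 CPM in the controls, against 9.24 and 12.1 CPM in the KO pair. The list median was -0.27. Klra1 and Klrd1 were at 0 in every library, and the NK receptor gene Ncr1 was at 4.29 CPM in control 1 and below 0.1 CPM in the others; these 3 were named after their values were seen. The part of such cells in the Id2 values was not tested. Id4, the remaining Id gene and not a member, had 0 reads in 3 libraries and 2 reads in KO 2.

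**Figure D2:**
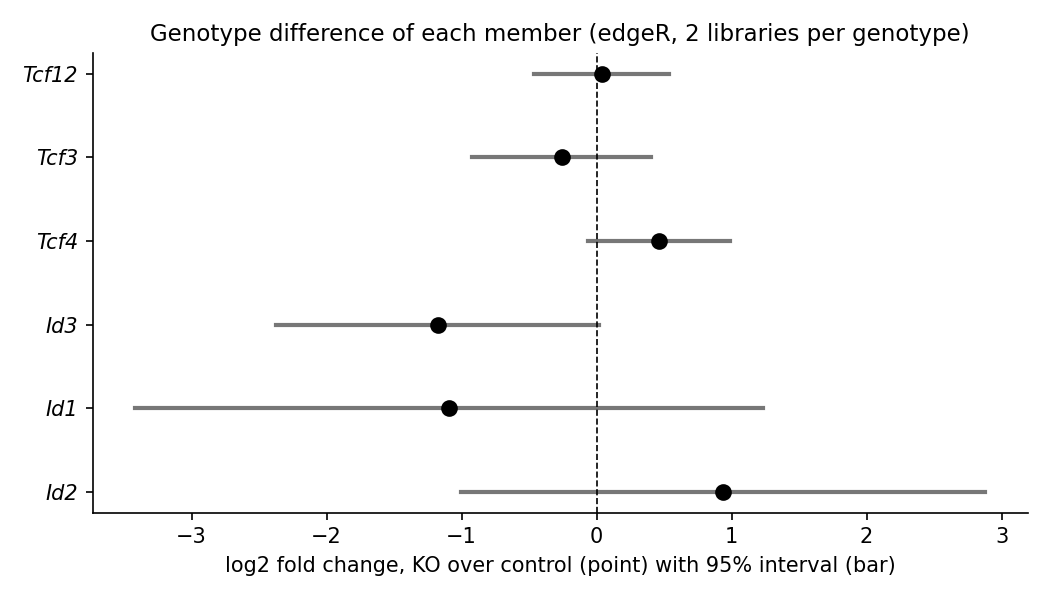
Log2 fold change of each gene, KO over control (horizontal axis), as a point with a 95% interval computed from the edgeR test on 2 libraries per genotype. Every interval includes 0. Those of Tcf12, Tcf3 and Tcf4 are narrower than those of Id1 and Id2, but reach 0.527-fold for Tcf3 and 1.98-fold for Tcf4.

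Levels of different genes can be compared only per length, here CPM per kilobase. With the union of exons in GENCODE M21 as the length, Tcf3 was at 38.7 to 70.1 and Tcf12 at 36.2 to 40.6 CPM per kilobase over the 4 libraries. Id3 followed at 5.68 to 20.1, then Tcf4 at 2.50 to 3.96, Id1 at 0.544 to 3.95 and Id2 at 0.485 to 1.71 CPM per kilobase. With the longest coding transcript as the length, Tcf12 was at 89.2 to 100.2 and Tcf3 at 53.0 to 95.9 CPM per kilobase, and Id3 (7.96 to 28.1) overlapped Tcf4 (7.97 to 12.6). Tcf3 and Tcf12 overlapped with either length, as did Id1 and Id2, so neither pair can be ordered. Under both lengths Tcf3 and Tcf12 lay above the other 4 genes in every library.

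Tcf12 was the most counted E protein gene and Id3 the most counted Id gene in every library. Tcf12 took 61.5% and 72.0% of E protein gene reads in the controls and 64.4% and 72.0% in the KO libraries. Tcf4 took 7.48% and 8.31% in the controls and 11.6% and 9.93% in the KO libraries. These shares did not overlap, and neither did the CPM of 46.8% of all tested genes. Each exact binomial 95% interval spanned less than 2 percentage points, which covers counting error only. Among Id gene reads, Id3 took 91.3% and 64.3% in the controls, against 68.0% and 70.0% in the KO libraries. Id1 was second in control 2 (28.3%), and Id2 was second in KO 1 (27.8%).

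The ratio of Id reads to E protein reads was highest in control 1, as was Id3. Control 1 had 4.32 Id reads for every 100 E protein reads and control 2 had 1.85, while KO 1 and KO 2 had 1.60 and 1.68. Both KO libraries lay below both controls, but control 2 was far closer to the KO libraries than to control 1. Corrected for exon union length, the values were 20.3, 11.9, 8.09 and 10.3 in the same order, and corrected for the longest coding transcript they were 15.7, 7.60, 5.77 and 6.76. The order of control 1 above control 2 above KO held in all 3 forms. These ratios were given no test, since they are scores over chosen genes.

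**Figure D3:**
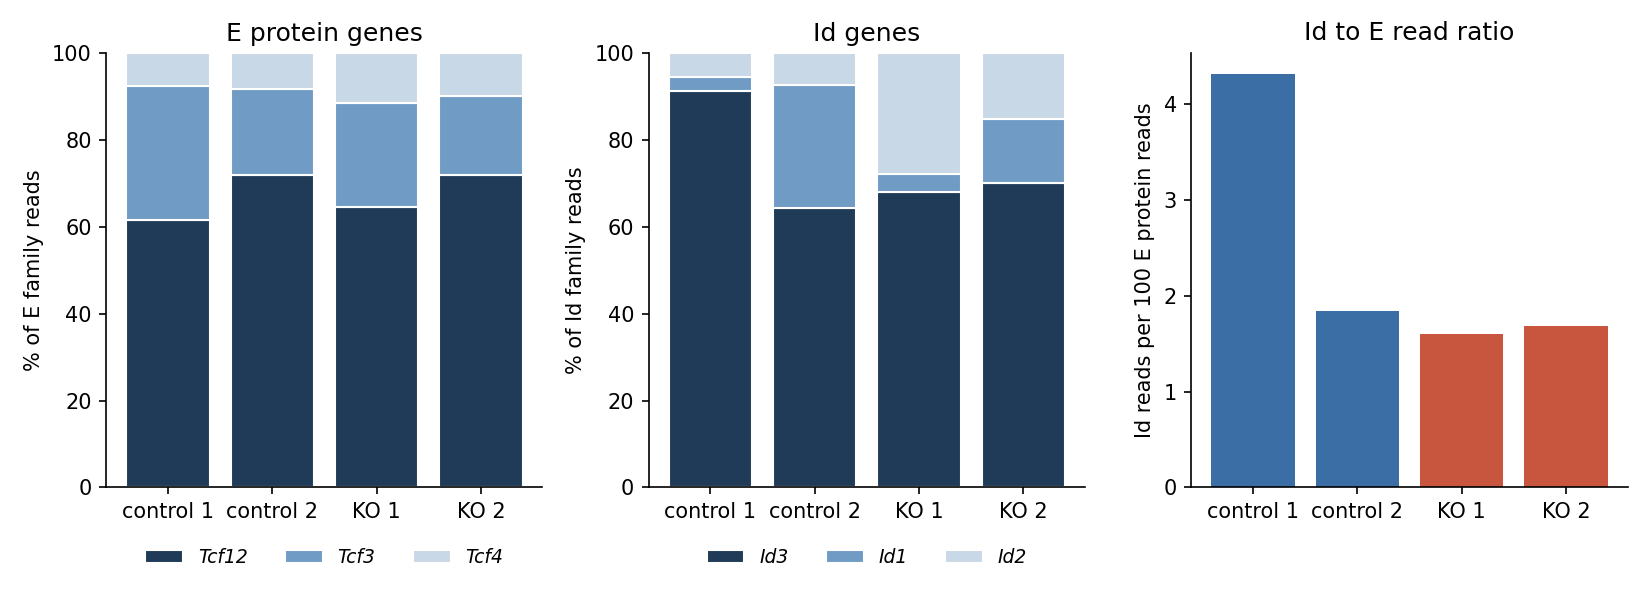
Share of E protein gene reads (left) and of Id gene reads (middle) taken by each gene, and Id reads per 100 E protein reads (right), in each of the 4 libraries, with no length correction. Tcf12 and Id3 take the largest share of their family in every library, and the Id to E ratio is 4.32 in control 1 and 1.60 to 1.85 in the others.

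Some genes listed for TCR signalling and the induction of Id3 fell in the KO libraries. The list also holds genes that TCR signals induce, so a listed gene need not act on Id3. Of 14 tested genes in this list, 3 fell, 0 rose and 11 did not pass in edgeR, while 0.181% of all tested genes fell and 0.27% rose. The list median was -1.66, and that of all tested genes was -0.04. Unadjusted p-values were below 0.05 for 8 genes, all lower, against 13.9% of all tested genes in either direction. DESeq2 called 6, against 4.74% of the genes it tested. The surface regulator gene Cd5 went from 105.5 and 129.9 CPM to 25.1 and 29.6 CPM (log2 fold change -2.11 ± 0.25, adjusted p = 0.0152, edgeR). The TCR-induced nuclear receptor gene Nr4a1 went from 30.5 and 37.0 CPM to 4.71 and 5.03 CPM (-2.79 ± 0.35). Egr1, the immediate-early factor gene that acts on Id3, went from 62.3 and 92.4 CPM to 4.91 and 13.7 CPM (-3.06 ± 0.47). Control and KO libraries did not overlap for any of these 3 genes, nor for 46.8% of all tested genes. The 3 were named because they passed the test, so this adds no support. Egr1 was lower in control 1 than in control 2, and Id3 was higher in control 1. The part of Egr1 in the Id3 values was not tested. The kinase gene Mapk3, chosen once its values had been seen, had a log2 fold change of 0.03 ± 0.32 and did not pass the test. The count of genes that fell was 0 without KO replicate 1 and 7 without control replicate 1.

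Genes of BMP and TGF-beta signalling, which acts on Id genes through SMAD proteins, were without a call in edgeR. Of 18 listed genes, 16 were tested and 0 passed in edgeR's quasi-likelihood test, with unadjusted p-values below 0.05 for 2 higher and 2 lower genes, while DESeq2 called 1. The list median was -0.15. Both KO libraries lay above both controls for 4 of the 16 and below for 6, against 22.8% and 24% of all tested genes. Smad3, a TGF-beta pathway SMAD gene, was at 113 and 79.7 CPM in the controls, against 195.4 and 126 CPM in the KO libraries (log2 fold change 0.74 ± 0.28, adjusted p = 0.3, edgeR). The receptor gene Tgfbr1 was at 119 and 117.1 CPM against 142.3 and 130.3 CPM (0.21 ± 0.21). The BMP receptor gene Bmpr1a was at 5.21 and 1.87 CPM in the controls, against 0.344 and 0.309 CPM in the KO libraries. Its log2 fold change of -3.41 ± 1.07 did not pass in edgeR but did in DESeq2 (adjusted p = 0.0368). Smad7 went the other way, from 0.168 and 0 CPM to 3.13 and 1.43 CPM (5.08 ± 1.81), and passed in neither edgeR nor DESeq2. Bmpr1a and Smad7 were named after their values were seen.

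Other partners of the E proteins were also without a call, in edgeR and in DESeq2. Of 13 HLH partner and LMO cofactor genes, 6 were tested and 0 passed in edgeR, with unadjusted p-values below 0.05 for 0 genes, while DESeq2 called 0. The bridging factor gene Ldb1 was at 263.5 and 210.3 CPM in the controls, against 185.4 and 164.9 CPM in the KO libraries (log2 fold change -0.43 ± 0.23). Lmo4, a LIM-only cofactor gene, was at 51.4 and 33.8 CPM in the controls, against 33.1 and 27.3 CPM in the KO libraries (-0.49 ± 0.30). The list median was -0.56. The leukaemia-linked HLH gene Tal1 had reads in control 1 alone, at 1.18 CPM, and Lmo1 and Tal2 had none; these 3 were named after their values were seen.

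Coregulators of E proteins passed the test in 0 of 12 cases in edgeR, with unadjusted p-values below 0.05 for 1 higher and 2 lower genes, while DESeq2 called 0. Their median was 0.03, and it was the same with Gfi1b, which had 0 reads in both controls, at its bound. The remodeller ATPase gene Smarca4 was at 921 and 818.2 CPM in the controls, against 1022 and 885.1 CPM in the KO libraries (log2 fold change 0.13 ± 0.23). Crebbp, which encodes the acetyltransferase CBP, was at 605.2 and 666.7 CPM against 454.3 and 491.1 CPM (-0.43 ± 0.22). Both KO libraries lay below both controls for Crebbp, but it did not pass the test (adjusted p = 0.437, edgeR).

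Genes of E and Id protein turnover passed in 0 of 11 cases in edgeR, with unadjusted p-values below 0.05 for 1 higher and 1 lower gene, while DESeq2 called 1. Their median was 0.21. Usp1, which encodes a deubiquitinase of Id proteins, was at 195.1 and 183.8 CPM in the controls, against 277 and 162.7 CPM in the KO libraries. Its libraries overlapped (log2 fold change 0.21 ± 0.28). Mdm2, a ubiquitin ligase gene, was at 185.9 and 214.4 CPM against 169.2 and 160.7 CPM (-0.28 ± 0.22). Asb2, named after its values were seen, was at 3.70 and 1.27 CPM in the controls, against 0 and 0.112 CPM in the KO libraries. Its log2 fold change of -5.35 ± 1.73 did not pass in edgeR (adjusted p = 0.226) but did in DESeq2 (adjusted p = 0.0173).

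Genes known as E protein targets in thymocytes moved in both directions. Of 20 tested, 2 rose, 2 fell and 16 did not pass in edgeR, with a list median of -0.29. Over all tested genes 0.27% rose and 0.181% fell. Unadjusted p-values were below 0.05 for 6 higher and 6 lower genes, against 13.9% of all tested genes. DESeq2 called 11, with 6 higher and 5 lower, against 4.74% of the genes it tested. Both KO libraries lay above both controls for 6 and below for 10, against 22.8% and 24% of all tested genes. The interleukin-7 receptor gene Il7r rose from 1.01 and 0.260 CPM to 30.6 and 21.9 CPM (log2 fold change 5.58 ± 0.65, adjusted p = 0.0152, edgeR). Cdk6, a G1 kinase gene, rose from 114.6 and 105.5 CPM to 638.7 and 374.8 CPM (2.204 ± 0.29, adjusted p = 0.0212, edgeR). Dntt, the terminal transferase gene, fell from 1172 and 1468 CPM to 250.3 and 385 CPM (-2.06 ± 0.28, adjusted p = 0.025, edgeR), and the coreceptor gene Cd4 fell as given above. All 4 of these genes had libraries that did not overlap between genotypes, as did 46.8% of all tested genes. They were named because they passed the test, so this adds no support. The recombinase genes Rag1 and Rag2, Rag2 being chosen once its values had been seen, did not pass the test (-0.68 ± 0.30 and -0.13 ± 0.25). Nor did Ptcra, Notch1 and Hes1 pass in edgeR, at 2.13 ± 0.55, 1.71 ± 0.39 and 6.90 ± 1.20. DESeq2 called each of them higher, and they too were named after their values were seen. Without KO replicate 1 none of the 4 passed, at log2 fold changes of 5.29 for Il7r, 1.81 for Cdk6, -1.74 for Dntt and -1.65 for Cd4, and Cd4 also did not pass with library totals as the only scaling, at -2.04.

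These target genes moved beside markers of thymocyte stage. Of 11 DP markers 3 fell and 0 rose in edgeR, against 0.181% and 0.27% of all tested genes. The count that fell was 0 without KO replicate 1, 1 with library totals only, 7 with DESeq2, 7 with no count filter and 8 with the replicate block. Their summed level was 11690 and 15400 CPM in the controls, against 4817 and 7704 CPM in the KO libraries. Of 8 tested markers of progenitors and double-negative cells 2 rose, Il7r and Il2ra, the interleukin-2 receptor alpha gene, which rose from 9.84 and 9.03 CPM to 200.6 and 97.0 CPM. The summed level of the progenitor list was 50.7 and 52.3 CPM in the controls, against 255.9 and 142 CPM in the KO libraries. Without Il7r and Il2ra it was lower in the KO libraries, at 39.9 and 43.0 CPM in the controls, against 24.6 and 23.0 CPM in the KO pair. The largest gene in that remainder was Cd44, an adhesion receptor gene of early progenitors. It was at 30.4 and 35.2 CPM in the controls, against 11.7 and 15 CPM in the KO libraries (log2 fold change -1.30 ± 0.32, adjusted p = 0.124 in edgeR and 0.0139 in DESeq2). Mef2c was at 2.19 and 1.62 CPM in the controls, against 3.04 and 2.56 CPM in the KO libraries. Kit was at 3.03 and 4.30 CPM against 7.86 and 3.93 CPM, and overlapped. Mef2c and Kit did not pass the test and were named after their values were seen. Both KO libraries lay above both controls for 3 of the 8 tested progenitor markers and below for 2, against 22.8% and 24% of all tested genes. Spi1, a defining progenitor factor chosen once its values had been seen, was at 0.17 CPM or less in all 4 libraries. Several genes, among them Dntt, Cd4, Rag1, Rag2 and Il7r, stand in both the target list and a marker list, so the lists are not separate. The part of cells at other stages in the target values was not tested.

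**Figure D4:**
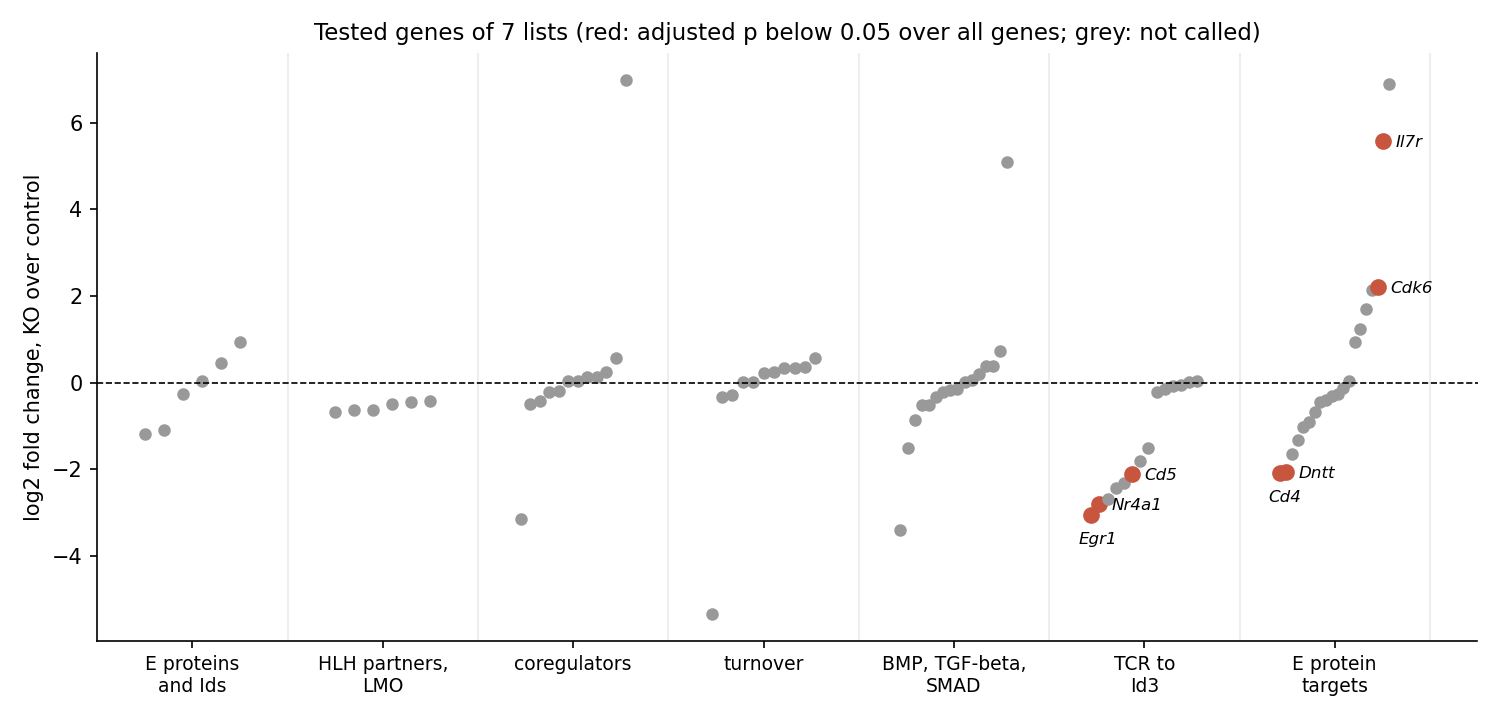
Log2 fold change, KO over control (vertical axis), of every tested gene in 7 lists (horizontal axis), in rising order within a list. Red points passed edgeR's test at an adjusted p below 0.05 over all genes, and none of the 6 E protein and Id genes did. The 3 that fell in the list for TCR signalling and Id3 induction were Egr1, Nr4a1 and Cd5.

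The profiles of the E protein genes had close neighbours. Nearest to Tcf12 was Wdr33, an RNA 3' end processing gene, at 204.1, 227.2, 216.9 and 226.3 CPM in control 1, control 2, KO 1 and KO 2 (distance 0.01), followed by Ccnt2 and Srpr. Nearest to Tcf4 was Cpsf2, another RNA 3' end processing gene, at 59.8, 63.0, 92.6 and 74.3 CPM (distance 0.03), followed by Pfdn6 and Uqcrfs1. Nearest to Tcf3 was Socs7 at 82.4, 49.6, 64.5 and 43.5 CPM (distance 0.04), followed by Ddx39 and Metrn. Within a distance of 0.2 lay 584 genes for Tcf12, 245 for Tcf4 and 67 for Tcf3, so the nearest genes are a few of many. Id1 and Id2 were below the 10 CPM set for this measure.

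Markers of B cells, whose development depends on E2A, were low. Of 10 listed, 8 were counted and 6 tested, and 0 passed in edgeR, with unadjusted p-values below 0.05 for 0 genes, while DESeq2 called 0. Their summed level was 16.7 and 12.6 CPM in the controls, against 10.99 and 9.81 CPM in the KO libraries. The largest was Cd79b, at 4.67 to 8.24 CPM, followed by Cd22, which was at 5.46 and 4.15 CPM in the controls, against 0 and 1.49 CPM in the KO libraries. Ms4a1, chosen once its values had been seen, was at 0 in 3 libraries.

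Of 8 erythroid markers 1 rose in edgeR and DESeq2 called 3. It was the alpha globin gene Hba-a1, at 0 CPM in both controls and at 14.6 and 6.49 CPM in the KO pair (adjusted p = 0.0177, edgeR; 0.14 without KO replicate 1 and 0.0582 with edgeR's newer quasi-likelihood setting). Its value is uncertain where reads are shared with the near-identical globin copy Hba-a2. The other listed globin genes, Hba-a2, Hbb-bs and Hbb-bt, also had 0 reads in both controls. In KO 1 and KO 2 they were at 5.02 and 2.39, 6.23 and 0.478, and 0.631 and 0.45 CPM, in that order. They did not pass in edgeR. Unadjusted p-values were below 0.05 for 4 higher genes, all globin genes, and for 0 lower genes. The KO pair lay above both controls for 4 genes of the list and below for 2, against 22.8% and 24% of all tested genes. Alas2, a haem synthesis gene, was at 8.24 and 14.0 CPM in the controls, against 11.5 and 15.7 CPM in the KO libraries, and overlapped. Without Hba-a1 the summed erythroid level was 11.1 and 16.2 CPM in the controls, against 24.4 and 20.5 CPM in the KO libraries. The part of erythroid cells in the values of the 6 genes was not tested.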

How the data were processed

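The deposited files hold raw read counts per gene symbol, 1 file per library. Per the file headers, reads were aligned with HISAT2, and per the submitters' processing notes the tools were cutadapt 4.0, HISAT2 2.2.1, featureCounts 2.0.8 and edgeR 3.36.0 on mm10, with no role or order given. Per the labels' protocols, libraries were made with a SMART-seq kit from total RNA. How multi-mapped reads were handled, the strandedness and the annotation are not stated in the labels or headers (not given in the sources used here). No GENCODE gene overlapped an exon of the 6 genes.

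The fit used edgeR 4.0.16 under R 4.3.3 (filterByExpr defaults, TMM, glmQLFit, genotype as the only term), on all 20389 genes, with Benjamini-Hochberg adjustment at 0.05. DESeq2 1.42.0 was an alternative. Intervals are 95%. A floor of 3 counts was 0.0843 to 0.252 CPM. PCR reads without molecular identifiers are not independent molecules, so counting intervals cover counting error only. Coordinates and lengths are from GENCODE M21.

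The members and all lists were chosen with earlier results of these data known. Named genes were the 6 members, Id4 and Cxxc1; per pathway list up to 3 genes that passed with the smallest p, or otherwise the 2 highest in CPM; per cell type list the 2 highest in CPM and any that passed; and the 3 genes with the nearest profile. Some genes that this rule names in the cell type lists are not described above. Among them, Pdgfrb was at 5.80 and 3.98 CPM in the controls, against 26.6 and 11.35 CPM in the KO libraries. Its adjusted p was 0.141 in edgeR and 0.0143 in DESeq2. Of 10 tested genes in its epithelial, stromal and endothelial list, edgeR called 0 and DESeq2 2. Both KO libraries lay above both controls for 2 and below for 5, against 22.8% and 24% of all tested genes. Pecam1, at 102.2 to 150.9 CPM, made up most of that list's sum. Summed marker levels in control 1, control 2, KO 1 and KO 2 were 100.9, 97.0, 109.5 and 101.1 CPM for 10 mature single-positive genes, 7.99, 1.64, 11.5 and 4.21 CPM for 4 gamma-delta T genes, 24.6, 39.6, 33.8 and 56.9 CPM for 14 myeloid genes, 11.1, 16.2, 38.9 and 26.9 CPM for 8 erythroid genes and 142.2, 171.4, 143.6 and 164.4 CPM for 13 epithelial, stromal and endothelial genes.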

Additional observations from a re-analysis of the deposited data

How the results depend on the processing

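Over 11 alternatives, 59 of 64 values of the 6 genes kept their direction and their side of the threshold; Id1 and Id2 gave no value at a minimum of 5 CPM. The sign turned for Tcf12 at a minimum of 5 CPM (-0.035) and without control replicate 1 (-0.045), for Tcf3 without control replicate 1 (0.139) and for Id1 without control replicate 2 (0.133). With 1 library left out, log2 fold changes ranged from -0.045 to 0.124 for Tcf12, -0.574 to 0.139 for Tcf3, 0.318 to 0.621 for Tcf4, -1.821 to -0.033 for Id3, -2.216 to 0.133 for Id1 and 0.445 to 1.429 for Id2; the lone library is then assumed to vary like the other genotype's. Of the 6 genes 0 passed in each of these fits except without control replicate 2, where Id3 alone did (1 gene, adjusted p = 0.0127, edgeR). Over all genes the 92 calls became 947 with DESeq2, 920 with no count filter, 233 at a minimum of 5 CPM and 9 to 619 with 1 library left out (9 without KO replicate 1, 619 without control replicate 2). Deviations of same-numbered libraries had a correlation of -0.00956 over 20389 genes, so the numbers were not taken to pair the samples. Some of the 6 genes nevertheless differed by replicate number alike in both genotypes. Log2 ratios of replicate 1 over replicate 2, control then KO, were -1.86 and -1.76 for Id1, 0.89 and 0.91 for Id2 and 0.71 and 0.52 for Tcf3. They were 1.79 and 0.002 for Id3, -0.09 and 0.34 for Tcf4 and -0.17 and -0.05 for Tcf12. With the replicate block the count of calls over all genes was 1599, and 0 of the 6 genes passed. The causes were not tested. With 2 libraries per genotype and few reads, 2-fold differences in Id1 and Id2 lie inside the intervals.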
